A study of Mus musculus with 2 samples.

Results

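Protein O-mannosyltransferases 1 and 2 (Pomt1, Pomt2), the N-acetylglucosaminyltransferases Pomgnt1 and Pomgnt2, the mannose kinase Pomk, the N-acetylgalactosaminyltransferase B3galnt2 and the GDP-mannose pyrophosphorylase subunit Gmppb are enzymes that glycosylate dystroglycan. Their RNA was described here in newborn mouse skeletal muscle. The genes were taken by symbol, and 7 of 7 were found among 43346 gene rows, with 32 of 103639 transcript rows. Muscle came from newborn mice of strain B6NCrl on postnatal day 0, for which no allele or treatment is given, and formed 1 group of 2 replicates, which the labels call pup 1 and pup 2 of pregnancy 1. The labels give both samples 1 donor entry, so the separate pups rest on the wording of the descriptions, and any spread below may be technical. The sex was not recorded and the muscle was not named. Each library was made from 10 ng of total RNA longer than 200 nt. The series holds no other condition, so levels are described and no test between conditions was possible.

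Alpha-dystroglycan sits outside the muscle fibre and binds laminin and related matrix proteins through a sugar chain called matriglycan. The chain is built on O-linked mannose. In the endoplasmic reticulum the POMT1 and POMT2 proteins act as a complex that puts mannose on serine or threonine, and GMPPB supplies the activated mannose from which the donor lipid is made. On the mannose that carries matriglycan, POMGNT2 adds N-acetylglucosamine, B3GALNT2 adds N-acetylgalactosamine and POMK then phosphorylates the mannose. POMGNT1 adds N-acetylglucosamine by another linkage in the Golgi, on mannose of the type called core M1, and is also needed for matriglycan. Inherited defects of any of these enzymes in people cause forms of muscular dystrophy, often with brain and eye malformation, grouped as dystroglycanopathies.

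The sequences that bear on the results are a pair of start regions of Pomgnt1 and an intron of Gmppb. Pomgnt1 was the most abundant of the 7 RNAs, and most of its reads were placed on a model that begins at the first of the start regions printed here, with 0 counts on the model that begins at the other. Each window runs from 250 bases before to 50 bases after a start, on the plus strand of GRCm38.p6 (RefSeq), at chr4:116150268-116150567 and chr4:116151181-116151480. Capitals mark the motif GGGCGG on either strand, where it reads CCGCCC on the other strand.
Pomgnt1, start of model 203: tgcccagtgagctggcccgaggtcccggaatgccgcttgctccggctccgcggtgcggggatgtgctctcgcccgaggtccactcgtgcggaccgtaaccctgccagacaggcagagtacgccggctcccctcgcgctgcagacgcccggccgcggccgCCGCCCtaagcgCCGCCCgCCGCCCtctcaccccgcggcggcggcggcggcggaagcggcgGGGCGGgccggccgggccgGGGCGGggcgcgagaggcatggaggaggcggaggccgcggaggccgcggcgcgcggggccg
Pomgnt1, start of model 201: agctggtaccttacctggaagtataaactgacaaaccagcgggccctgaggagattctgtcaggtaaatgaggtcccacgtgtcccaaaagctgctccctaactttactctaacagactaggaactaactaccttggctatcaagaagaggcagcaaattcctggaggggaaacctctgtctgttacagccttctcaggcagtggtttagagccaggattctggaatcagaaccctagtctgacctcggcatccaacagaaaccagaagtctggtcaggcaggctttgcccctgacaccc
The window at the start of Pomgnt1-203 was 80.7% G and C and held 51 CpG, at percentiles 99.2 and 99.3 of 32851 RefSeq windows of the same length from 27025 genes, where the medians were 52.7% and 7 CpG. It held GGGCGG at 5 places, a motif present in 35.7% of all windows. The window at the start of Pomgnt1-201 was 50.7% G and C, held 3 CpG, had no GGGCGG and held TATAAA, in either orientation, at 1 place, against 13.6% of all windows with at least 1 such match. These letters were searched as written, on both strands, no match overlapped another, and a match is no evidence of a factor's binding.

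The windows of the other matched members were less rich in CpG than that of Pomgnt1-203. For Pomt1 it was 61.0% G and C with 33 CpG (percentile 91.4) and no GGGCGG. That window has its start at 32236640, nearest to the model Pomt1-203, while the leading model Pomt1-201 begins at 32236590. For Pomt2 the window was 62.3% G and C with 26 CpG (percentile 83.1) and 1 GGGCGG. For Pomgnt2 it was 48% G and C with 13 CpG (percentile 62.1) and no GGGCGG. Of the 7 genes 4 were matched in the RefSeq table, and Pomk, B3galnt2 and Gmppb were not. In Gmppb the leading transcript model keeps an 83-base intron that lies between exons 8 and 9 of the 10 exons of the coding model Gmppb-201. The same model keeps the first intron too, of 91 bases. Only Gmppb-201 was compared, so the coding model Gmppb-202 may keep an intron of these as well. The 83-base intron is shown in capitals with 20 bases of exon on each side (mm10, plus strand, chr9:108050957-108051079, from the GENCODE M21 transcripts).
Gmppb, intron kept in model 203: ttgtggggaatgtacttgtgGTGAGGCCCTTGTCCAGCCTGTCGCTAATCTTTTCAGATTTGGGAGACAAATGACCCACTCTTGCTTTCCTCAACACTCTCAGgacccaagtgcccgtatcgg
The intron begins with GT and ends with AG, and its length is not a multiple of 3.

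Skeletal muscle markers were plentiful in both libraries, and all 6 listed (Acta1, Ckm, Myh3, Myh8, Myog and Tnnt3) reached at least 1 TPM, with sums of 76646 TPM in replicate 1 and 86580 TPM in replicate 2. TPM, the deposited measure of RNA level, is corrected for transcript length. Of the 3 neuronal markers none reached 1 TPM, and none was at 0. The tables summed to 40455042 expected counts in replicate 1 and 37151129 in replicate 2, of which the 7 genes held 6724 and 5256. Markers of epidermis, adipocytes and cartilage were higher in replicate 1. Past 2-fold higher were 5 of 5 epidermal markers (summed 428 TPM in replicate 1 and 4.19 TPM in replicate 2) and 5 of 5 adipocyte markers (2392 and 102 TPM). The 5 cartilage markers summed to 37.1 and 0.80 TPM, and among them Snorc was at 62 counts against 0. Markers of Schwann cells and endothelium differed little between the replicates. Their part in the values below was not tested. In bulk tissue, fewer cells of a type and less RNA per cell cannot be told apart.

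All 7 enzymes were transcribed at low to middle levels, from 4.99 to 30.3 TPM in the mean of the replicates. All were below dystroglycan itself, as were 93.0% of protein-coding genes at or above 1 TPM. A mean of 1 TPM was reached by 7 of 7, where 58.2% of protein-coding genes in the tables reached it. Pomgnt1 stood above the rest. The median of the 7 genes was 8.58 TPM, against 11.8 TPM over the 12495 protein-coding genes at or above 1 TPM. Percentiles of level below refer to those genes, and positions are those of GENCODE M21 on mm10.

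Of the pair that starts the chain, Pomt1 (ENSMUSG00000039254.12, chromosome 2, 32236590 to 32255005, plus strand) had 10.7 TPM in replicate 1 and 7.15 TPM in replicate 2, from 776 and 469 counts. Its mean of 8.92 ± 2.50 TPM (SD, n = 2) lay at percentile 43.0. Pomt2 (ENSMUSG00000034126.4, chromosome 12, 87106861 to 87147968, minus strand) had 5.31 and 4.66 TPM, from 787 and 653 counts, with a mean of 4.99 ± 0.46 TPM (SD, n = 2) at percentile 27.7. Pomt2 was the lowest of the 7 in replicate 1, and its values did not overlap those of Pomt1. Pomt1 exceeded Pomt2 by 0.99 and 0.61 on the log2 scale of TPM (0.1 TPM added), a mean of 0.80 ± 0.27 (SD, n = 2). A pair of genes was said to differ beyond their spread where this ratio had 1 sign in both replicates and a mean above 3 SD. By that rule the difference within the mannosyltransferase complex was within the spread. The SD comes from 2 ratios and leaves out counting error, so a small gap can pass the rule where the 2 ratios lie close together. It was beyond the spread with posterior mean TPM (0.98 ± 0.24) and on coding models alone (0.65 ± 0.11). The direction also turned with the length correction, since Pomt2 transcripts are longer (5059 nt against 2918 nt for Pomt1) and expected counts alone put Pomt1 at 0.99 and 0.72 times Pomt2.

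The 2 N-acetylglucosaminyltransferases were far apart. Pomgnt1 (ENSMUSG00000028700.10, chromosome 4, 116123840 to 116159849, plus strand) had 32.6 TPM in replicate 1 and 28.1 TPM in replicate 2, from 2348 and 1971 counts. Its mean of 30.3 ± 3.17 TPM (SD, n = 2) was at percentile 73.2, above that of every other member. Pomgnt2 (ENSMUSG00000066235.6, chromosome 9, 121981606 to 121997110, minus strand) had 6.64 and 5.62 TPM, from 451 and 361 counts, with a mean of 6.13 ± 0.72 TPM (SD, n = 2) at percentile 33.2. The ratio of Pomgnt1 to Pomgnt2 was 2.28 and 2.30 on the log2 scale, 2.29 ± 0.02 (SD, n = 2), or 4.89-fold, which was beyond the spread. Of the summed TPM of the 7 genes, Pomgnt1 alone made up 38.5% in replicate 1 and 40.6% in replicate 2.

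The kinase and the N-acetylgalactosaminyltransferase, which act on the sugar chain that POMGNT2 has extended, flanked Pomgnt2 in level. B3galnt2 (ENSMUSG00000039242.9, chromosome 13, 13954469 to 13999103, plus strand) had 9.53 TPM in replicate 1 and 7.62 TPM in replicate 2, from 1021 and 772 counts, with a mean of 8.58 ± 1.35 TPM (SD, n = 2) at percentile 41.8. Pomk (ENSMUSG00000037251.4, chromosome 8, 25980604 to 25994133, minus strand) had 5.55 and 4.59 TPM, from 581 and 455 counts, with a mean of 5.07 ± 0.68 TPM (SD, n = 2) at percentile 28.1. Pomk was the lowest of the 7 in replicate 2. B3galnt2 exceeded Pomgnt2 by 0.47 ± 0.06 on the log2 scale, and Pomk was below Pomgnt2 by a log2 ratio of -0.27 ± 0.02 and below B3galnt2 by -0.74 ± 0.04 (SD, n = 2 each). All of these 3 differences were beyond the spread, although Pomk against Pomgnt2 turned round in counts that were not corrected for length (0.35).

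Gmppb (ENSMUSG00000070284.6, chromosome 9, 108049242 to 108052801, plus strand) had 14.3 TPM in replicate 1 and 11.5 TPM in replicate 2, from 760 and 575 counts. Its mean of 12.9 ± 2.00 TPM (SD, n = 2) was at percentile 52.6, second to Pomgnt1. Gmppa encodes the related subunit that regulates the pyrophosphorylase, and it had 44.5 TPM in replicate 1 and 32.3 TPM in replicate 2. Gmppb reached 32.1% and 35.5% of Gmppa, a log2 ratio of -1.56 ± 0.10 (SD, n = 2), beyond the spread. In counts not corrected for length it had 0.60 times those of Gmppa in both replicates. The gene B3galnt1, a B3galnt2 relative that makes the globoside glycolipid, had 19.7 and 17.9 TPM, and B3galnt2 was below it by a log2 ratio of -1.13 ± 0.13 (SD, n = 2), also beyond the spread, although in counts the ratio was within it (-0.25 ± 0.13).

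**Figure D1:**
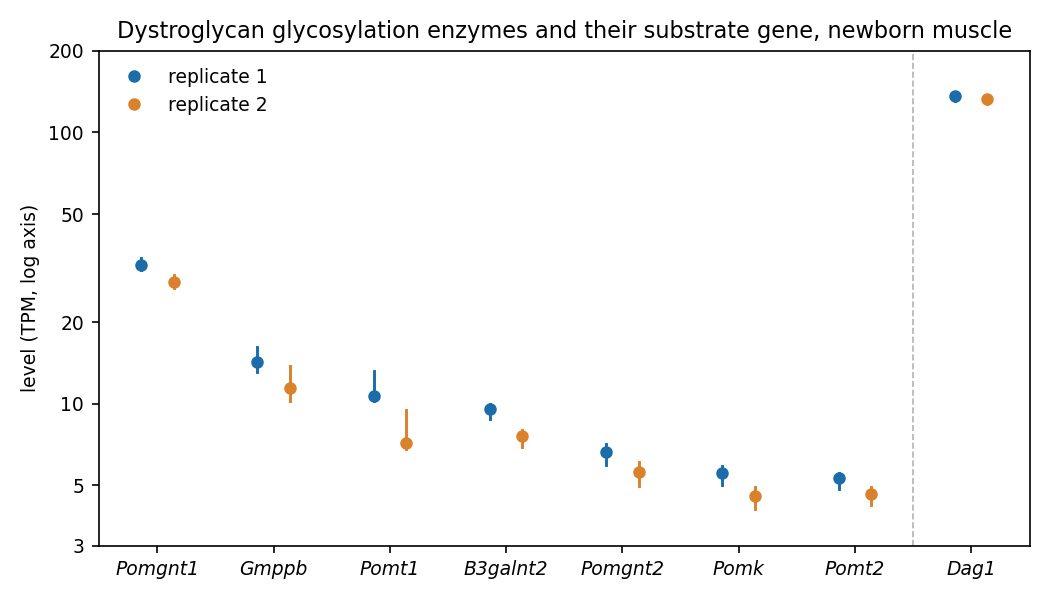
Level of the 7 genes and of Dag1 in TPM on a log axis, with a point for each replicate and a bar for that library's deposited TPM interval, whose level is not stated. Pomgnt1 sits at 28.1 to 32.6 TPM, above the other 6 genes, which lie between 4.59 and 14.3 TPM, and Dag1 lies at 133 to 136 TPM.

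Put in order by mean level, the genes ran Pomgnt1, Gmppb, Pomt1, B3galnt2, Pomgnt2, Pomk and Pomt2. The gap between neighbours in this order was beyond the spread for 4 of 6 neighbour pairs, a count with no share over other genes to set beside it. Pomgnt1 exceeded Gmppb by 1.23 ± 0.07, Gmppb exceeded Pomt1 by 0.54 ± 0.18, B3galnt2 exceeded Pomgnt2 by 0.47 ± 0.06 and Pomgnt2 exceeded Pomk by 0.27 ± 0.02 (log2 ratios of TPM, SD, n = 2 each). Pomt1 and B3galnt2 did not differ beyond their spread (0.04 ± 0.18), nor did Pomk and Pomt2 (0.02 ± 0.06), and each of these 2 pairs changed places between the replicates. Both calls depended on the measure, since Pomt1 was below B3galnt2 beyond the spread on coding models alone (-0.11 ± 0.01) and Pomk below Pomt2 in counts (-0.48 ± 0.06). The gap between Gmppb and Pomt1 only just passed the rule. It fell within the spread with no pseudocount (0.55 ± 0.18), with posterior means (0.43 ± 0.16) and in counts (0.13 ± 0.23), and on coding models alone Gmppb was below Pomt1 beyond the spread (-0.17 ± 0.02). The highest gene exceeded the lowest 6.13-fold in replicate 1 and 6.12-fold in replicate 2.

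The substrate was more abundant than any enzyme. Dag1, which encodes dystroglycan and lies 151.8 kb from Gmppb on chromosome 9, had 136 TPM in replicate 1 and 133 TPM in replicate 2. Its mean was at percentile 93.0, so a level below Dag1 was common to most expressed coding genes and is not particular to these enzymes. The summed TPM of all 7 enzymes was 84.6 and 69.2, which came to 62.1% and 52.2% of Dag1. Pomgnt1 was nearest to it, at 23.9% and 21.2% of Dag1. Pomt2 and Pomk were farthest below it, with Pomt2 at 3.90% and 3.51% and Pomk at 4.07% and 3.46%. All 7 enzymes were beyond the spread below Dag1, with log2 ratios from -4.73 ± 0.10 for Pomt2 to -2.15 ± 0.12 for Pomgnt1 (SD, n = 2 each). Over all 14 pairs of genes compared, 13 were beyond the spread, among them the 7 pairs of an enzyme with Dag1. The rule was not applied to pairs of other genes, so these counts have no background and do not set the 7 enzymes apart.

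Transcript models differed among the members in number and in what they encode. The tables held 1 model each for Pomt2, Pomgnt2, Pomk and B3galnt2, so 4 of 7 members had a single model, against 26.8% of protein-coding genes at or above 1 TPM. No splice form of these 4 could be told apart, and the later GENCODE M21 annotation lists 4, 7, 1 and 12 models for Pomt2, Pomgnt2, Pomk and B3galnt2. The single models ranged from 2 exons (Pomgnt2) to 21 exons (Pomt2). Pomt1, Pomgnt1 and Gmppb had 11, 12 and 5 models. The same model led in both replicates in 3 of these 3 genes, against 90.4% of 9147 protein-coding genes with several models, and it was protein coding in Pomt1 and Pomgnt1 but not in Gmppb, where 90.3% of those genes were led by a coding model.

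Pomt1 was mostly the full-length coding model Pomt1-201, with 20 exons and 2918 nt. It held 80.4% of the gene's TPM in replicate 1 and 76.5% in replicate 2, or 78.4% ± 2.72 (SD, n = 2), and 93.2% and 92.9% of its counts. The rest differed between the replicates. The short retained-intron model Pomt1-203 (440 nt), a transcript that still holds an intron, held 11.2% of TPM in replicate 1 and 0% in replicate 2, from 12.1 and 0 counts. The partial coding model Pomt1-202 held 0% and 16.4%, from 0 and 21.6 counts, and the partial coding model Pomt1-208 held 2.78% and 5.06%. These minor shares therefore rest on few reads, which weigh more in TPM because the models are short.

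Pomgnt1 was mostly Pomgnt1-203, with 22 exons and 2719 nt, which begins at the first printed start region. It held 86.4% of TPM in replicate 1 and 89.8% in replicate 2, or 88.1% ± 2.43 (SD, n = 2). Models that begin there, Pomgnt1-203 and Pomgnt1-202, together took 2232 of the gene's 2348 counts in replicate 1 and 1870 of 1971 in replicate 2. The 4 models that begin at upstream starts took 79.0 and 76.0 counts, or 3.36% and 3.85%. Pomgnt1-201, which begins at the second printed region, had 0 expected counts in both libraries. Expected counts come from a split of shared reads, so the limit of 3 counts for a 0 does not cover this value. By posterior mean TPM Pomgnt1-201 held 0.3% of the gene in both libraries. The upstream model Pomgnt1-205, also at 0 counts, held 2.31% in replicate 1 and 2.14% in replicate 2 by that measure. Almost all reads were thus placed on models from the G and C rich start.

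Gmppb was led in both replicates by a model that is not annotated as coding. Gmppb-203, a retained-intron model of 8 exons and 1853 nt that keeps the printed intron, held 44.5% of TPM in replicate 1 and 40.4% in replicate 2, or 42.4% ± 2.89 (SD, n = 2). It was followed by the coding models Gmppb-201, with 33.6% and 28.6%, and Gmppb-202, with 20.8% and 26.2%. By counts the shares of Gmppb-203 were 43.8% and 39.9%, and Gmppb-202, at 2702 nt the longest, came next with 30.5% and 38.5%. Retained-intron models together made up 43.3% of Gmppb's TPM in the mean, at percentile 96.0 of the 9147 genes, whose median was 0.336%. Only 3.37% of those genes were led by such a model. In Pomt1 retained-intron models made up 16.9% of TPM in replicate 1 and 2.10% in replicate 2 (5.96% and 0.921% of counts), so no single share describes it. In Pomgnt1 they made up 5.03% in the mean (percentile 70.3). Coding models alone gave Gmppb 7.78 TPM in replicate 1 and 6.28 TPM in replicate 2, and on coding models alone it came below B3galnt2 and Pomt1, in place 4 of 7.

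**Figure D2:**
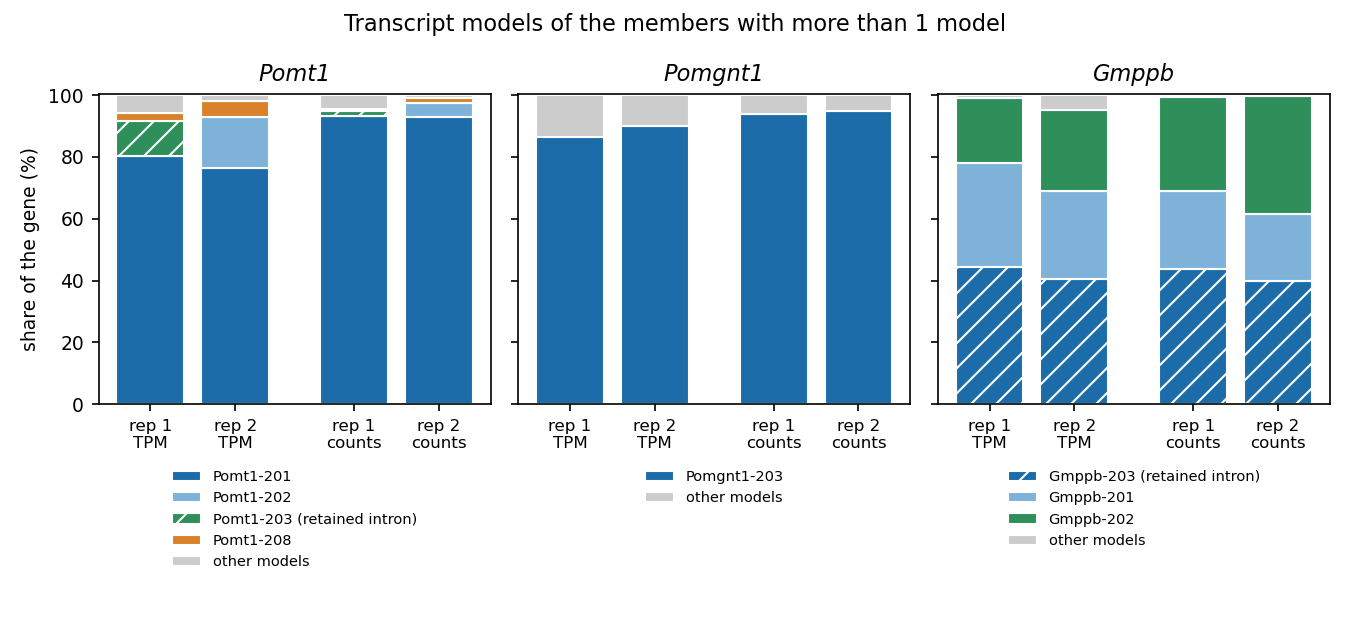
Share of each gene's TPM and of its expected counts, in percent, held by the transcript models (hatched where they retain an intron, grey for models under 5% throughout) of Pomt1, Pomgnt1 and Gmppb in replicate 1 and replicate 2. Pomt1-201 and Pomgnt1-203 hold most of their genes in both replicates, whereas 3 models of Gmppb share it, with Gmppb-203 at 44.5% and 40.4% of TPM.

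Part of these reads lies where genes overlap on opposite strands, and the counting strand is not given in the sources used here, so reads of overlapping genes cannot be told apart. The overlapping genes were chosen by position, outside the rule for named genes. Gmppb shares 937 exon bases, 33.6% of its exon bases, with the ubiquitin ligase gene Rnf123, which had 20.3 TPM in replicate 1 and 25.6 TPM in replicate 2. The shared stretch runs from 108051534 to 108052699, so it begins beyond the printed intron. All 3 main models of Gmppb reach into that range, with ends at 108051702 for Gmppb-201, 108051916 for Gmppb-203 and 108052801 for Gmppb-202. Pomt2 shares 465 bases (5.85%) with Gstz1, at 64.5 and 29.4 TPM, near the start of Pomt2. Pomgnt1 shares 641 bases (11.7%) with Lurap1, at 0.85 and 0.95 TPM, from 144 and 152 counts. These bases are spread between 116137237 and 116151243. That range holds the start of Pomgnt1-203 and those of the upstream models Pomgnt1-204, Pomgnt1-205 and Pomgnt1-208, so the counts by start may include Lurap1 reads. B3galnt2 shares 325 bases (5.13%) with Tbce, at 21.7 and 18.0 TPM. Pomt1 shares 4 bases with Uck1. Gmppb thus had the largest shared part among the 7 genes.

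The enzymes that act after the 7 had mean levels from 0.435 to 35.8 TPM. Of 7 genes that extend the chain, 6 reached 1 TPM. Rxylt1, which adds xylose to ribitol phosphate, was the highest at 39.3 TPM in replicate 1 and 32.3 TPM in replicate 2. Large2, which can polymerise matriglycan, was the lowest and the only gene of this list under 1 TPM. It was at 0.60 and 0.27 TPM, from 33.0 and 6.03 counts. Its posterior mean TPM was 1.5 in replicate 1 and 0.88 in replicate 2, so its place under the limit depends on the measure. The summed TPM of this list was 99.97 in replicate 1 and 88.2 in replicate 2, beside 84.6 and 69.2 for the 7 enzymes. B4gat1, which primes the chain for matriglycan, was at 31.1 and 26.6 TPM.

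Genes that supply the mannose donor were higher than the 7 enzymes in the median. All 12 reached 1 TPM, with a median of 28.9 TPM. Dpm1, the catalytic subunit of dolichol-phosphate mannose synthase, was the highest at 110 and 108 TPM, and Nus1, a subunit of the enzyme that makes the dolichol precursor, was the lowest at 9.06 and 6.52 TPM. Of 8 genes for other sugar nucleotides all reached 1 TPM, from the UDP-glucose pyrophosphorylase Ugp2 at 355 TPM in replicate 1 and 370 TPM in replicate 2 to the hexosamine pathway enzyme Gfpt1 at 8.50 and 7.69 TPM. The other O-mannosyltransferases of mammals, which act on cadherins, plexins and related receptors, were lower. All 5 (Tmtc1 to Tmtc4 and Tmem260) reached 1 TPM, from Tmtc1 at 1.58 and 1.87 TPM to Tmtc3 at 4.67 and 4.83 TPM, which was near the level of Pomt2 and Pomk.

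Of 4 genes that elaborate the other O-mannose cores or cap them, none reached 1 TPM in the mean. Chst10, a sulphotransferase that makes the HNK-1 epitope, had 1.13 TPM in replicate 1 and 0.81 TPM in replicate 2, the highest of the 4. B3gat1 had 0.71 and 0.78 TPM, and Mgat5b, which branches O-mannose in brain, had 0.20 and 0.26 TPM. B3gat2 was the lowest, at 0.12 TPM in both. Pomgnt1, which makes the core these enzymes extend, was thus present at a high level for the 7. The 4 listed enzymes after it were each under 1 TPM in the mean of deposited TPM. For Chst10 this depends on the measure, since its posterior mean TPM was 1.28 in replicate 1 and 1.03 in replicate 2. B3gat1 stayed under the limit by that measure, at 0.85 and 0.95 TPM. Of 7 proteins that bind matriglycan, 5 reached 1 TPM, led by the basement membrane proteoglycan perlecan, Hspg2, at 33.7 and 28.9 TPM. The laminin chain gene Lama1 was the lowest, at 0.04 TPM in both, from 10 counts each. Over all 44 other pathway genes, 37 reached 1 TPM and the median was 11.0 TPM.

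**Figure D3:**
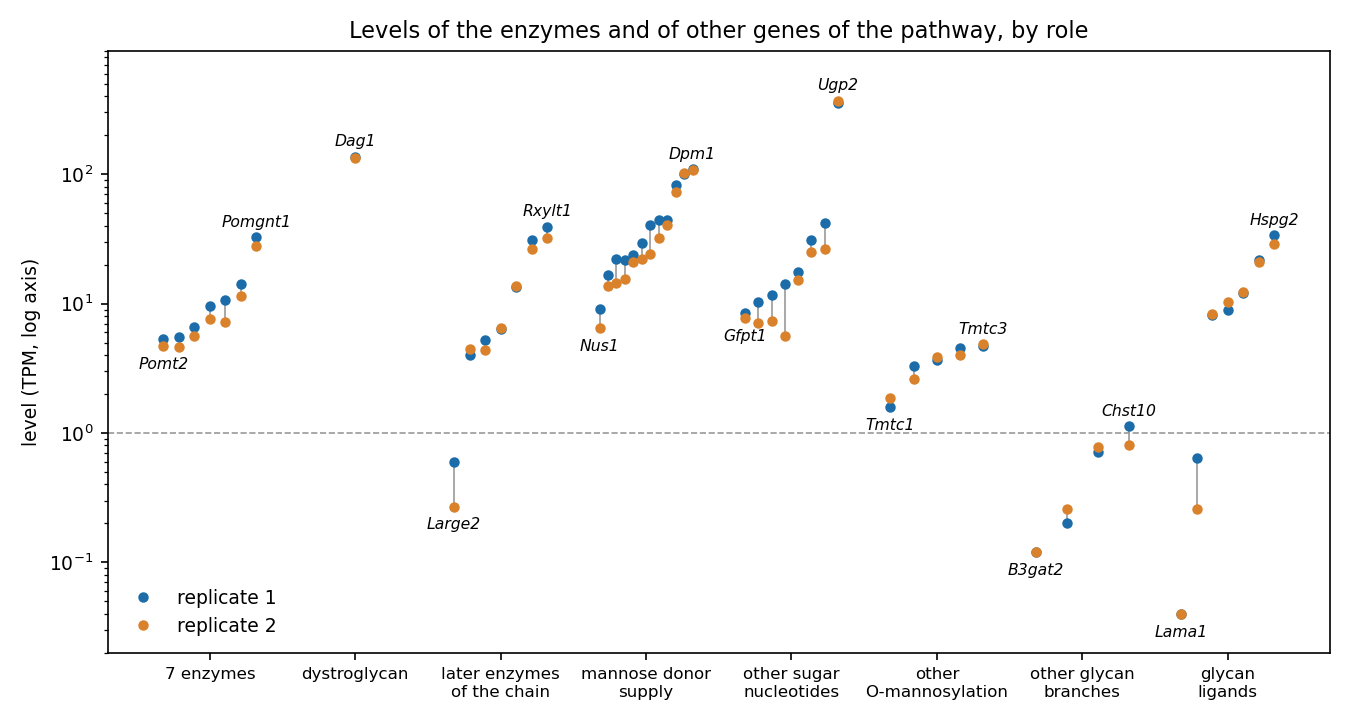
Level of each gene in TPM on a log axis, by list and ordered by mean within a list, with a point for each replicate joined by a line, and a dashed line at 1 TPM. The 7 enzymes lie between 4.59 and 32.6 TPM, below Dag1, while the 4 genes of other glycan branches lie at or under 1.13 TPM.

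The pathway gene closest in level was sought among 50 genes, as the smallest distance of log2(TPM + 1) over the 2 samples. Pomgnt1 was closest to Hspg2 (distance 0.06). Pomt1 and B3galnt2 were both closest to Pgm3, an enzyme of the hexosamine pathway (0.06 and 0.13), which had 10.2 and 7.11 TPM. Pomt2 and Pomk were closest to each other (0.06). Gmppb was closest to the laminin chain gene Lama5 (0.25; 12.0 and 12.3 TPM). With 2 samples such distances describe levels and nothing more.

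Between the replicates the ratios of the 7 genes all lay in the same direction. The ratio of replicate 1 over replicate 2, from counts scaled with TMM in edgeR, was above 0 on the log2 scale in 7 of 7 members, where 50.0% of 12429 genes with at least 100 mean counts were above 0. It was past 2-fold in 0 of 7 members, against 2.39% of those genes, and past 1.5-fold in 0 of 7, against 6.08%. The 1.5-fold count holds for TMM, since Pomt1 was past that limit with total count scaling (log2 ratio 0.60) and with spike-in scaling (0.76). The median log2 ratio of the 7 was 0.13, and that of 11873 protein-coding genes with at least 100 counts was 0.00, with 95% of them between -0.45 and 0.95. Each pup gave 1 library, so the ratio has no residual degrees of freedom and no test.

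Pomt1 had the highest ratio of the 7, at 0.50, or 1.42-fold by counts with an exact 95% counting interval of 1.26 to 1.59, at percentile 93.7 of the coding genes. B3galnt2 and Gmppb were each at 0.18, with 1.13-fold (1.03 to 1.24) for B3galnt2 and 1.13-fold (1.01 to 1.26) for Gmppb. These 3 intervals lay above 1. For the other 4 they included 1, with log2 ratios of 0.13 for Pomk, 0.10 for Pomgnt2, 0.04 for Pomt2 and 0.03 for Pomgnt1. The intervals cover counting error alone, not the spread between animals. The share of all genes with an interval that leaves out 1 was not counted, so 3 of 7 has no background and does not set these genes apart.

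Deposited TPM was higher in replicate 1 for 7 of 7 members, against 74.2% of all those genes, so a higher TPM in replicate 1 was common in these tables. The authors' deposited intervals of TPM did not overlap between the replicates in 4 of 7 members (Pomt1, Pomgnt1, Pomk and B3galnt2), all higher in replicate 1, against 38.9% of all genes apart either way and 33.5% apart and higher in replicate 1. For Pomt1 the deposited interval was 10.3 to 13.2 TPM in replicate 1 and 6.81 to 9.49 TPM in replicate 2. These counts rest on 7 genes.

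The other lists of the pathway differed in the direction of their ratios between the replicates. Of 37 other pathway genes with at least 100 counts, 20 had a ratio above 0, and their median log2 ratio was 0.05. The mannose donor list had 8 of 12 above 0 (median 0.16) and the sugar nucleotide list 6 of 8 (median 0.28). The chain-extending list had 3 of 6 above 0 (median -0.04), the other O-mannosyltransferases 2 of 5 (-0.04) and the ligands 1 of 5 (-0.27). Muscle markers had 0 of 6 above 0 and a median of -0.30, and Dag1 was at -0.11, on the TMM scale. Scaling by the spike-ins in place of TMM raised the median of all genes to 0.26. Fibroblast markers had a median of 0.21 and leukocyte markers of 0.43, with 4 of 5 above 0 in each list. The epidermal median was 8.91 and the adipocyte median 4.37. Schwann cell markers had 1 of 3 above 0 (median -0.02) and endothelial markers 2 of 3 (0.10). The part of these cell types in the ratios of the 7 enzymes was not tested.

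**Figure D4:**
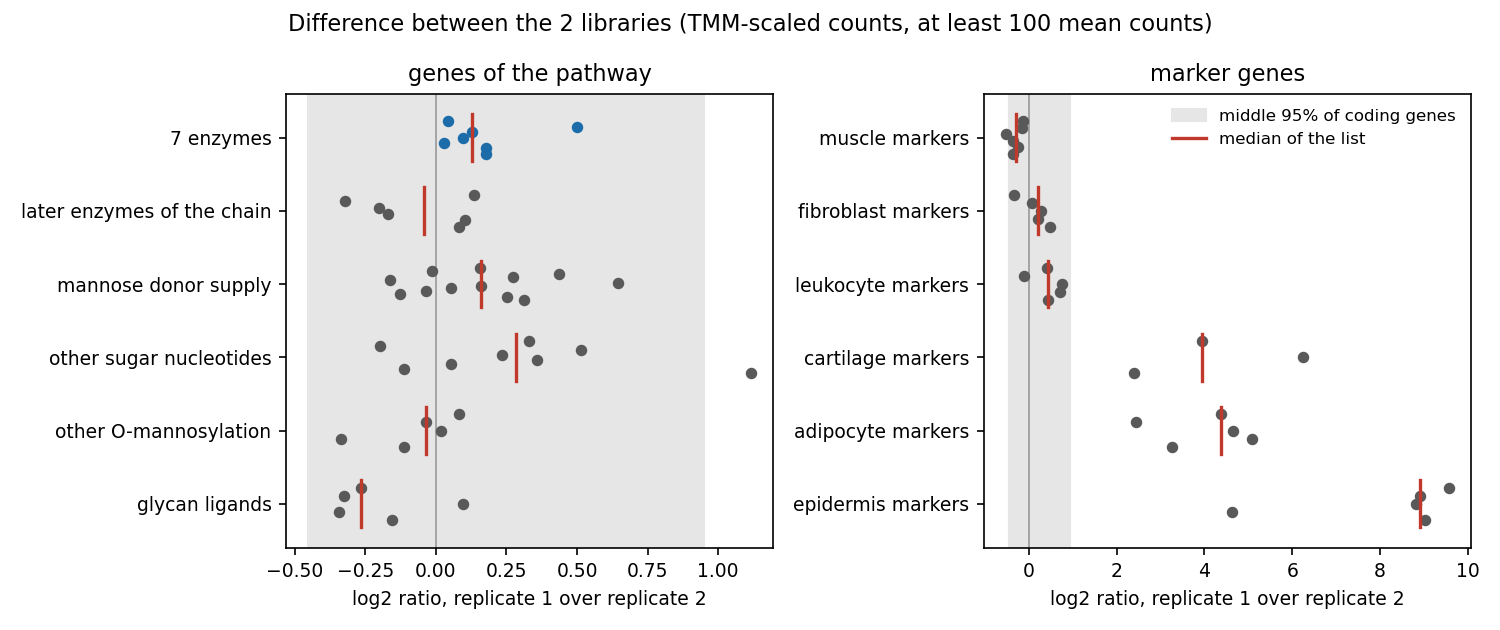
Log2 ratio of replicate 1 over replicate 2 for each gene with at least 100 mean counts, by list, with pathway lists on the left and marker lists on the right, on different x scales. Points are genes, red bars the list medians and the grey band holds 95% of protein-coding genes. The 7 enzymes lie between 0.03 and 0.50, whereas epidermal, adipocyte and cartilage markers lie far to the right of the band.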

How the data were processed

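Total RNA of newborn skeletal muscle was sequenced from 2 replicates. Per the file headers, the authors deposited expected counts (reads shared between transcripts are split by a model), TPM with a lower and upper bound of its interval (treated as a score, whose level is not stated), posterior means, and the percent of each gene's TPM that a transcript holds. Quantification used mm10 and GENCODE M4, per the notes deposited with the tables. Neither aligner, quantifier and versions nor the counting strand is given in the sources used here (RSEM writes columns with these names). Effective length and exon overlap limit how well short or overlapping models are resolved. The posterior SD of the count was 0 in both libraries for 3 of the 7 genes (Pomt1, Pomgnt2 and Pomk).

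Gene names, biotypes and positions were taken from GENCODE M21 by unversioned ID (42462 of 43346 rows). Spike-in rows (406 and 416 counts) stayed out of the gene ratios. Levels are deposited TPM, with the mean and SD (n = 2). Pairs are log2 ratios of TPM with 0.1 TPM added. For ratios between replicates, expected counts were rounded, scaled by TMM over genes with at least 10 mean counts and expressed as log2 CPM (prior count 2, edgeR 4.0.16 in R 4.3.3). Size factors of DESeq2 1.42.0 were an alternative, beside other filters, pseudocounts, posterior means, coding models alone and leaving out each replicate. No test was run, since 1 library per pup leaves no residual degrees of freedom. Counting intervals are exact Clopper-Pearson intervals at 95%, and a count of 0 allows up to 3 counts (7.42e-06% and 8.08e-06% of the libraries). Both cover counting error only, since reads amplified by PCR and not tagged are not independent molecules. Neither covers the split of shared reads between models. The script for the ratios was tested on simulated data.

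The members, the 7 pathway lists, the 9 marker lists, the pairs and the limits were chosen with earlier results of these data known. Named are all members with every model of at least 5% of the gene, the genes of the pairs, in each list the highest, the lowest, those under 1 TPM and those past 2-fold, and the pathway gene nearest in level to each member; some genes that this rule names are not reported here. Overlapping neighbours, B4gat1 and Snorc were named after their values were seen. The other tools were matplotlib 3.10.9, scipy 1.17.1, pandas 2.3.3, numpy 2.4.6 and Python 3.11.15.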

Additional observations from a re-analysis of the deposited data

How the results depend on the processing

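The 7 ratios between replicates stayed above 0 in all 49 values of 7 genes under 7 alternatives (0.03 to 0.76), and 0 members passed 2-fold under any. Scaling by the spike-ins, added after the data were seen, put the median log2 ratio of the 7 genes at 0.39 (0.13 with TMM), and it moved the median of all genes by 0.26 as well. Total count scaling moved that median by 0.10. With DESeq2 size factors and the other filters and prior count the median of all genes stayed at 0.00. The alternatives thus stayed near TMM or raised most genes alike, so the shared sign under them adds no support to that with TMM. Without length correction, counts gave log2 ratios of -0.25 for Pomt1 over Pomt2, 0.35 for Pomk over Pomgnt2 (-0.35 for Pomgnt2 over Pomk), -0.56 for Pomt1 over B3galnt2 and -0.48 for Pomk over Pomt2, of which those of Pomk and Pomgnt2 and of Pomk and Pomt2 were beyond the spread. On coding models alone Gmppb over Pomt1 was -0.17 and Pomt1 over B3galnt2 -0.11, both beyond the spread by the rule in the direction opposite to the one reported. The gap between Pomt1 and B3galnt2 is not resolved, since the coding values of Pomt1 lay inside the deposited intervals of B3galnt2. Leaving out each replicate in turn gave -0.0906 to 0.163 for Pomt1 over B3galnt2 and -0.0214 to 0.0626 for Pomk over Pomt2, each below 0 in replicate 2 alone. Pomt1 over Pomt2 passed the rule with posterior means (0.98 ± 0.24) and coding models alone (0.65 ± 0.11). Gmppb over Pomt1 fell within the spread with no pseudocount (0.55 ± 0.18), posterior means (0.43 ± 0.16) and counts (0.13), and B3galnt2 over B3galnt1 with counts (-0.25). Apart from the part of length in the count ratios, the cause was not tested. Of the levels, Gmppb moved by more than its SD on coding models alone (7.03 TPM). Pathway genes at the level limit numbered 39 at 0.5 TPM and 36 at 2 TPM. This number was not counted again with posterior means, which were higher than deposited TPM for Large2 and Chst10. No paired analysis was possible because the series holds 1 group. Depth limits the minor models of Pomt1, which held at most 21.6 counts each.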
